A study of Mus musculus with 21 samples.

Results

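The genes described here are *Wt1*, *Lmx1b*, *Tcf21*, *Foxc1*, *Foxc2*, *Foxd1* and *Foxd2*, which encode transcription factors of the podocyte. They were chosen by name and found by their Entrez Gene number, as 7 of the 27179 genes counted in every library, and all 7 passed the filter on low counts. mRNA was sequenced from podocyte fractions of male C57BL/6J wildtype mice, for which the cortex was digested and cells bearing nephrin, a slit diaphragm protein, were pulled out by antibody and magnetic beads. Podocytes were isolated from individual mice. Young mice were untreated and 4 months old by the study's text (n = 6 libraries). The study's methods describe archived control mice of 4 months, in a number that differs from that of the young libraries, and do not say whether these were the mice sequenced. Middle-aged mice were 19.5 months old by the same text. They had been injected for 6 weeks from 18 months of age with saline (n = 7) or with 10 mg/kg of MCC950 in saline (n = 8). MCC950 is an inhibitor of the NLRP3 inflammasome. The comparison of saline with young mice therefore holds age and saline injection together, which cannot be told apart.

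Podocytes are the post-mitotic epithelial cells that cover the glomerular capillaries with interdigitating foot processes, and they keep expressing a set of developmental transcription factors throughout life. WT1, a zinc finger protein, and LMX1B, a LIM homeodomain protein mutated in nail-patella syndrome, regulate slit diaphragm and basement membrane genes such as *Nphs1* and *Col4a4*. TCF21 (Pod1) is a basic helix-loop-helix protein required for podocyte differentiation. FOXC1 and FOXC2 are a closely related pair of forkhead proteins that act in podocyte development and maintenance, and FOXD1, known for marking the stromal progenitors of the embryonic kidney, and FOXD2 are another forkhead pair.

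In GRCm38, RefSeq places *Wt1* on the forward strand of chr2:105126529-105173614 and *Lmx1b* on the reverse strand of chr2:33560965-33641208. *Tcf21* lies on the reverse strand of chr10:22817263-22820143, *Foxc1* on the forward strand of chr13:31806646-31810635 and *Foxd1* on the forward strand of chr13:98354245-98356705. *Foxc2* lies on the forward strand of chr8:121116171-121118895 and *Foxd2* on the reverse strand of chr4:114906280-114908898, and the 4 forkhead genes each have a single exon. RefSeq promoter entries were found for 5 of the 7 genes, and *Wt1* and *Foxc2* had none. Bases before the gene are shown for *Lmx1b* and *Foxd2*, because another gene is transcribed away from them on the opposite strand and fell with them, and for *Foxd1*, the forkhead partner of *Foxd2* without such a neighbour. The table's window of 250 bases ends at the gene for *Foxd2* and *Foxd1*, while that of *Lmx1b* belongs to a start 110 bases inside the RefSeq span of the gene, so only its first 140 bases, which lie before that span, are printed. The printed stretches are chr2:33641209-33641348 (reverse strand), chr4:114908899-114909148 (reverse strand) and chr13:98353995-98354244 (forward strand), each written from 5′ to 3′ on the strand of the gene. Capitals mark CCAAT, the core of the CCAAT box, and GGGCGG, a GC box, on either strand.
Lmx1b: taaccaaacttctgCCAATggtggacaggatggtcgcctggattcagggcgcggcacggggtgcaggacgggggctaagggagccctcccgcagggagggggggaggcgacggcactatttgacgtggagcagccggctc
Foxd2: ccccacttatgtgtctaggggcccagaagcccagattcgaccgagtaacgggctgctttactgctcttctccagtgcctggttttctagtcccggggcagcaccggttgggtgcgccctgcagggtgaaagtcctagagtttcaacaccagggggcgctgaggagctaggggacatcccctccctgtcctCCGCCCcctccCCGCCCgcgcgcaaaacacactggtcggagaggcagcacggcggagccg
Foxd1: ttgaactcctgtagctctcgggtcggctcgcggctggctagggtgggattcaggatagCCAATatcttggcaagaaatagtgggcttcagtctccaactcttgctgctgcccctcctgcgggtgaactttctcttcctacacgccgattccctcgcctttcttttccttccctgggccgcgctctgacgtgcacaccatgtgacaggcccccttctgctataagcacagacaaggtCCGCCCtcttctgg
The printed stretch of *Lmx1b* lies wholly within the RefSeq span of *C130021I20Rik* (chr2:33641193-33645663), its neighbour on the opposite strand. It held CCAAT 1 time, that of *Foxd2* held GGGCGG 2 times and that of *Foxd1* held each motif 1 time. CCAAT occurred in 33.8% and GGGCGG in 32.7% of all 32851 promoter windows of 250 bases, so each is a common feature. TGTTTAC, a forkhead core, was in 3.17% of all windows, CAGCTG, an E-box, in 13.0%, TAATTA, a homeodomain core, in 4.84% and GCGTGGG, a core shared by EGR and WT1 proteins, in 4.30%, and these letters were in 0 of the 5 windows of these genes.

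Total counts ranged from 27375870 to 36827823 in young, from 45772937 to 84876399 in saline and from 35440472 to 58247271 in MCC950 libraries, and genes of the mitochondrial genome took between 49.9% and 80.4% of them. The reads behind the 7 genes were few, between 0 and 835 for a gene in a library. The 11 podocyte structural genes (among them *Nphs1*, *Podxl* and *Synpo*) were counted in every group, with a summed level of 750 to 1679 CPM (read counts scaled to a common library depth by TMM) in young, 255 to 445 in saline and 346 to 609 in MCC950 libraries. The 9 proximal tubule markers summed to between 1071 and 4053 CPM, so the fractions held other kidney cells. The structural score, the mean log2 CPM of the 11 genes, did not overlap between young and either middle-aged group, and within the young group it was lower in replicates 1, 5 and 6 than in replicates 2, 3 and 4. Saline replicate 5 had the lowest score of all libraries. In such bulk fractions, fewer podocytes and less RNA per podocyte cannot be told apart.

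Levels between genes were compared as CPM per kilobase of transcript. In young podocyte fractions *Tcf21* (7.28 ± 3.35, SD, n = 6) and *Wt1* (5.95 ± 2.49) stood highest, and *Tcf21* was above *Wt1* in 5 of 6 libraries with overlapping ranges. *Foxc1* followed with 2.45 ± 0.321 CPM per kilobase and did not overlap with *Wt1*, and *Foxc2* stood at 1.74 ± 0.725. *Foxd1* (0.881 ± 0.363) and *Foxd2* (0.870 ± 0.328) did not differ beyond their spread on RefSeq lengths, each being the higher in 3 of 6 libraries. *Lmx1b* was the lowest with 0.183 ± 0.105 CPM per kilobase. In saline libraries *Foxc1* (1.15 ± 0.290) had a mean level per kilobase above that of *Wt1* (0.873 ± 0.355), in 5 of 7 libraries and with overlapping ranges, and *Foxd2* (0.389 ± 0.0612) was above *Foxd1* (0.136 ± 0.0782) in 7 of 7. In MCC950 libraries *Wt1* (1.77 ± 0.567) was again above *Foxc1* (0.956 ± 0.278) in 8 of 8. The places of *Foxc1* and *Foxd1* depend on the length used, and those of *Tcf21* and *Wt1* were not examined at another length. All annotated exons of *Tcf21* and *Wt1* together span 2349 and 6195 bases, against the 1267 and 3090 used here. The GENCODE transcript of *Foxc1* is 5844 and its RefSeq gene 3990 bases long, and with the former its mean was 1.67 CPM per kilobase in young libraries, under that of *Foxc2*, and 0.783 in saline libraries, under that of *Wt1*, so that *Wt1* was above *Foxc1* in all 3 groups by mean. The GENCODE transcript of *Foxd1* is 5064 and its RefSeq gene 2461 bases long, and with the former its young mean was 0.428 CPM per kilobase, with *Foxd2* (0.879) above it in 6 of 6 libraries.

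All 7 transcription factors were lower in podocyte fractions of saline-treated middle-aged mice than in those of young mice. *Wt1*, *Lmx1b* and *Foxd1* fell furthest, to between 14.7% and 15.4% of the young mean, *Tcf21* and *Foxc2* to 23.3% and 25.6%, and *Foxc1* and *Foxd2* to 46.9% and 44.7%. Each passed an adjusted p under 0.05 in edgeR's quasi-likelihood test with Benjamini-Hochberg adjustment over all 16377 genes tested, where 12.4% of all genes were called lower and 12.2% higher. In 5 of the 7 the young and saline libraries did not overlap, against 4.86% of all genes with no overlap in this direction. The median log2 fold change of the 7 was -2.12, beside 0.02 over all genes tested. The fall was not particular to the 7, since all 11 podocyte structural genes were called lower too, with a median of -1.91.

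*Wt1* lay between 9.88 and 27.0 CPM (median 19.0) in young and between 0.706 and 4.18 CPM (median 2.75) in saline libraries. Every young library was above every saline library, and young replicates 2, 3 and 4 held the 3 highest values. *Wt1* fell 6.86-fold, or by 2.78 on the log2 scale (standard error 0.32, adjusted p = 1.21e-05). *Tcf21* lay between 3.93 and 14.5 CPM (median 9.34) in young and between 0.864 and 2.90 CPM (median 2.38) in saline libraries, again without overlap. It fell by 2.12 on the log2 scale (standard error 0.30, adjusted p = 5.79e-05). *Lmx1b* had between 0 and 45 reads in young (0 to 1.45 CPM, median 0.986) and between 2 and 13 reads in saline libraries (0.0365 to 0.306 CPM, median 0.0915). Its groups overlapped only through young replicate 5, where *Lmx1b* had no read, which allows up to 0.168 CPM at a limit of 3 counts. The log2 fold change of *Lmx1b* was -2.82, with the largest standard error of the 7 (0.61, adjusted p = 0.00198).

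The 2 forkhead pairs each held one gene that fell further than the other in mean level. *Foxc2* lay between 2.13 and 6.81 CPM (median 5.38) in young and between 0.754 and 1.61 CPM (median 1.27) in saline libraries, which is a fall by 1.97 on the log2 scale (standard error 0.26, adjusted p = 3.29e-05). *Foxc1* was more even among young libraries, between 7.52 and 10.9 CPM (median 10.1), and lay between 2.85 and 6.11 CPM (median 4.37) in saline libraries. The fall of *Foxc1* was the smallest of the 7 (-1.10, standard error 0.18, adjusted p = 2.26e-04), and neither *Foxc* gene overlapped between the groups. *Foxd1* lay between 0.921 and 2.92 CPM (median 2.56) in young and between 0.189 and 0.756 CPM (median 0.256) in saline libraries, where replicate 6 was more than 2 times as high as any other. It fell by 2.68 on the log2 scale (standard error 0.40, adjusted p = 8.27e-05). *Foxd2* lay between 1.18 and 3.32 CPM (median 2.44) in young and between 0.796 and 1.23 CPM (median 1.04) in saline libraries, and its groups touched through young replicate 5. Its log2 fold change was -1.17 (standard error 0.23, adjusted p = 0.00106).

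**Figure D1:**
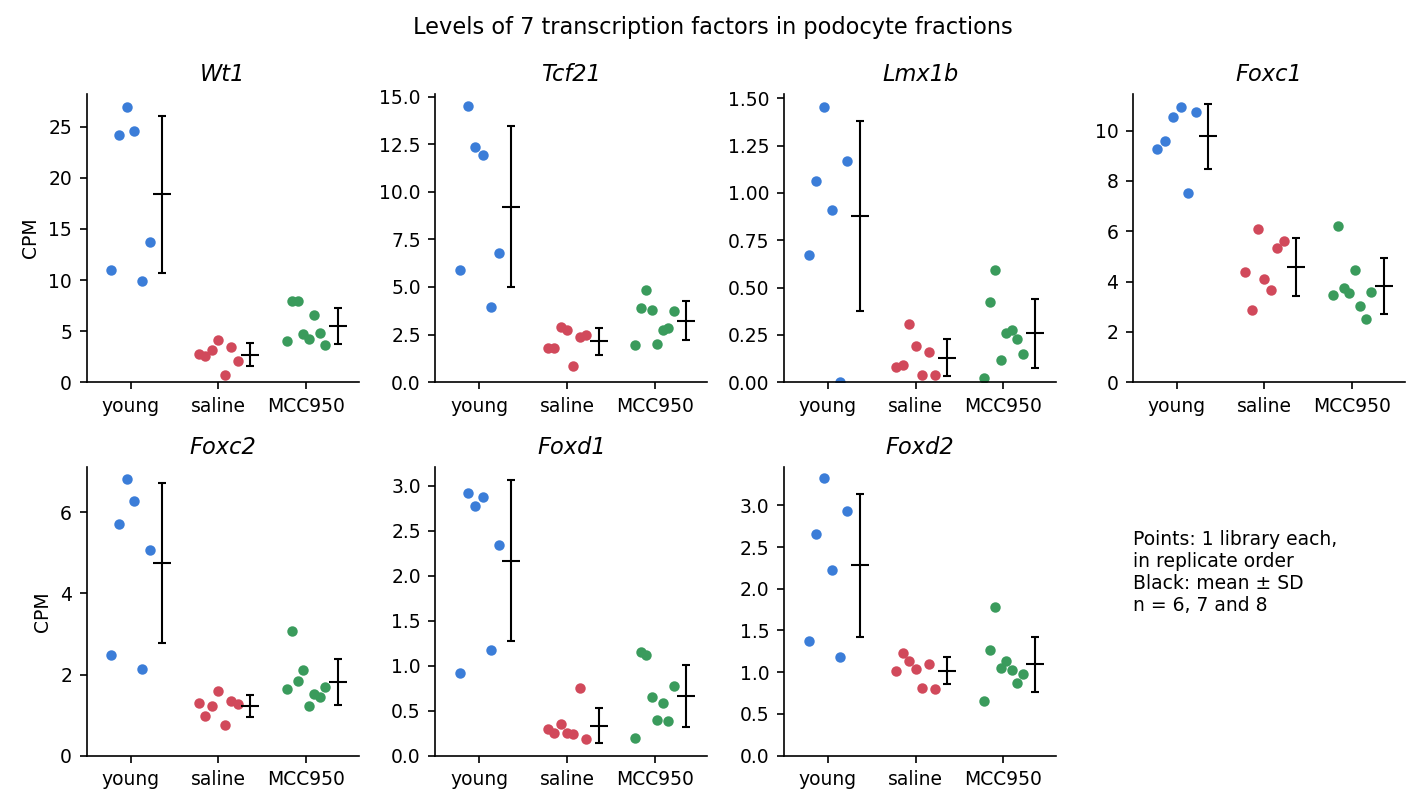
CPM of each of the 7 genes (vertical axis, from 0, scaled for each gene) in the 6 young, 7 saline and 8 MCC950 libraries, with 1 point for each library and the mean ± SD in black. Young libraries stood above saline libraries without overlap for Wt1, Tcf21, Foxc1, Foxc2 and Foxd1, and Lmx1b was at 0 in young replicate 5.

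Markers of other cells, within and outside the glomerulus, moved with age as well, and their part in these values was not tested. All 7 endothelium markers and 5 of 6 mesangium and smooth muscle markers were called lower in saline libraries, beside 12.4% of all genes. Their summed levels did not overlap between the groups. Endothelium markers summed to 415 to 749 CPM in young and 201 to 348 CPM in saline libraries, and mesangium markers to 158 to 223 and 60.7 to 105.2 CPM. Outside the glomerulus, 3 of 5 collecting duct markers and 2 of 5 markers of the loop of Henle and distal tubule were called lower. Of the proximal tubule markers, 0 of 9 were called. The score of B and plasma cell markers was higher with age by 2.57, with 3 of 5 markers called higher, beside 12.2% of all genes. With the structural score or the endothelium score as a covariate, 0 of the 7 genes passed the threshold with age, in fits where neither score overlapped between young and saline libraries. In these fits 0% and 0.0122% of all genes were called lower, so the count says nothing about the 7 genes.

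With MCC950, *Wt1* rose against saline, and the other 6 genes did not pass the test. *Wt1* was the only one of the 7 called, where 11.9% of all genes were called higher and 4.86% lower, and the median log2 fold change of the 7 was 0.59 beside 0.0028 over all genes. *Wt1* lay between 3.59 and 7.99 CPM (median 4.76) in MCC950 libraries. Of these 8 libraries, 6 were above the highest saline library and all 8 above the saline median, and MCC950 replicates 2 and 3 were the highest. The log2 fold change was 1.03 (standard error 0.30, adjusted p = 0.0235), a 2.04-fold rise. Without saline replicate 7 it was 0.96 with an adjusted p of 0.0526, and with the structural score as a covariate it was 0.45 with an adjusted p of 0.0222.

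All 7 genes overlapped between saline and MCC950 libraries, where 1.15% of all genes were higher without overlap. *Lmx1b* had between 1 and 28 reads in MCC950 libraries (0.0197 to 0.594 CPM, median 0.244), with a log2 fold change of 1.02 (95% interval -0.13 to 2.17, adjusted p = 0.241). *Foxd1* lay between 0.197 and 1.15 CPM (median 0.618), with a log2 fold change of 0.94 (interval 0.21 to 1.67, adjusted p = 0.0853). Without saline replicate 6, its highest saline library, *Foxd1* passed the threshold with a log2 fold change of 1.28 (adjusted p = 0.0294). *Tcf21* lay between 1.97 and 4.83 CPM (median 3.29) and *Foxc2* between 1.23 and 3.06 CPM (median 1.67). Their log2 fold changes were 0.59 (interval 0.05 to 1.14, adjusted p = 0.148) and 0.58 (interval 0.11 to 1.06, adjusted p = 0.101). *Foxd2*, between 0.650 and 1.78 CPM (median 1.04), differed by 0.11 (interval -0.32 to 0.53, adjusted p = 0.775). *Foxc1* was the only one of the 7 with a lower mean in MCC950 than in saline libraries. It lay between 2.51 and 6.19 CPM (median 3.56), a log2 fold change of -0.26 (interval -0.59 to 0.07, adjusted p = 0.301). Beside these values, 5 of 9 proximal tubule markers were called higher in MCC950 than in saline libraries, against 11.9% of all genes. Their score was higher by 0.79 (exact two-sided permutation test, p = 0.00373, 0.00959 after adjustment over 54 such tests). The mitochondrial share of counts dropped by 13.2 percentage points on average. With the proximal tubule score as a covariate, the log2 fold change of *Wt1* was 1.47 (adjusted p = 0.0245), in a fit that called 2.86% of all genes higher. With mitochondrial genes left out, the log2 fold change of *Wt1* was 1.03 (adjusted p = 0.0236). With the remaining counts thinned to equal depth as well, it was 1.05 (adjusted p = 0.0331). These fits called 11.8% and 10.3% of all genes higher. The part of the mitochondrial share was not tested beyond them.

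Against young mice, all 7 genes were still lower in MCC950-treated mice. This was the case for 16.5% of all genes, with 21.8% called higher, and the comparison shares its libraries with both others. The log2 fold changes ran from -1.80 (*Lmx1b*, standard error 0.54, adjusted p = 0.0133) to -1.06 (*Foxd2*, standard error 0.22, adjusted p = 0.00101), and that of *Wt1* was -1.75 (standard error 0.30, adjusted p = 1.46e-04). *Wt1* and *Foxc1* did not overlap between young and MCC950 libraries, beside 4.66% of all genes. As a share of the young mean, *Wt1* stood at 14.7% with saline and 29.8% with MCC950, *Lmx1b* at 14.7% and 29.4%, and *Foxd1* at 15.4% and 30.4%. *Tcf21* stood at 23.3% and 35.0%, *Foxc2* at 25.6% and 38.4% and *Foxd2* at 44.7% and 48.1%. *Foxc1* had 46.9% of the young mean with saline and 39.1% with MCC950.

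To see whether a factor moved by more or less than the podocyte structural genes in the same libraries, each library was also scaled by the geometric mean of its 11 structural genes. On this scale, the median log2 fold change of all genes with age shifts to 1.85 and 97.7% of all genes are called higher and 0.147% lower, so that an adjusted p there is close to the unadjusted p. *Wt1* was lower in saline than in young libraries by 0.90 (standard error 0.21, adjusted p = 2.17e-04) without overlap (0.0855% of all genes), and *Foxd1* by 0.76 (standard error 0.34, adjusted p = 0.0355). *Foxc1* and *Foxd2* were higher on it, each by 0.74 (standard errors 0.24 and 0.26, adjusted p = 0.00436 and 0.00901). *Foxc1* and *Foxd2* thus fell by less and *Wt1* and *Foxd1* by more than the 11 structural genes as a set. *Tcf21* (-0.20, interval -0.64 to 0.24), *Foxc2* (-0.05, interval -0.51 to 0.41) and *Lmx1b* (-0.95, standard error 0.52, adjusted p = 0.0771) were not called. *Lmx1b* was called lower without young replicate 5 (-1.17, adjusted p = 0.0181) and without saline replicate 3 (-1.25, adjusted p = 0.0287). The list sets the size of these values. With the 6 structural genes of largest fall as the scale, an alternative chosen after seeing the data, *Wt1* was lower by 0.44 (adjusted p = 0.118) and *Foxd1* by 0.26 (adjusted p = 0.521), while *Foxc1* and *Foxd2* remained called higher. *Foxd1* also lost its call in 8 of the 13 fits that leave out a young or saline library.

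**Figure D2:**
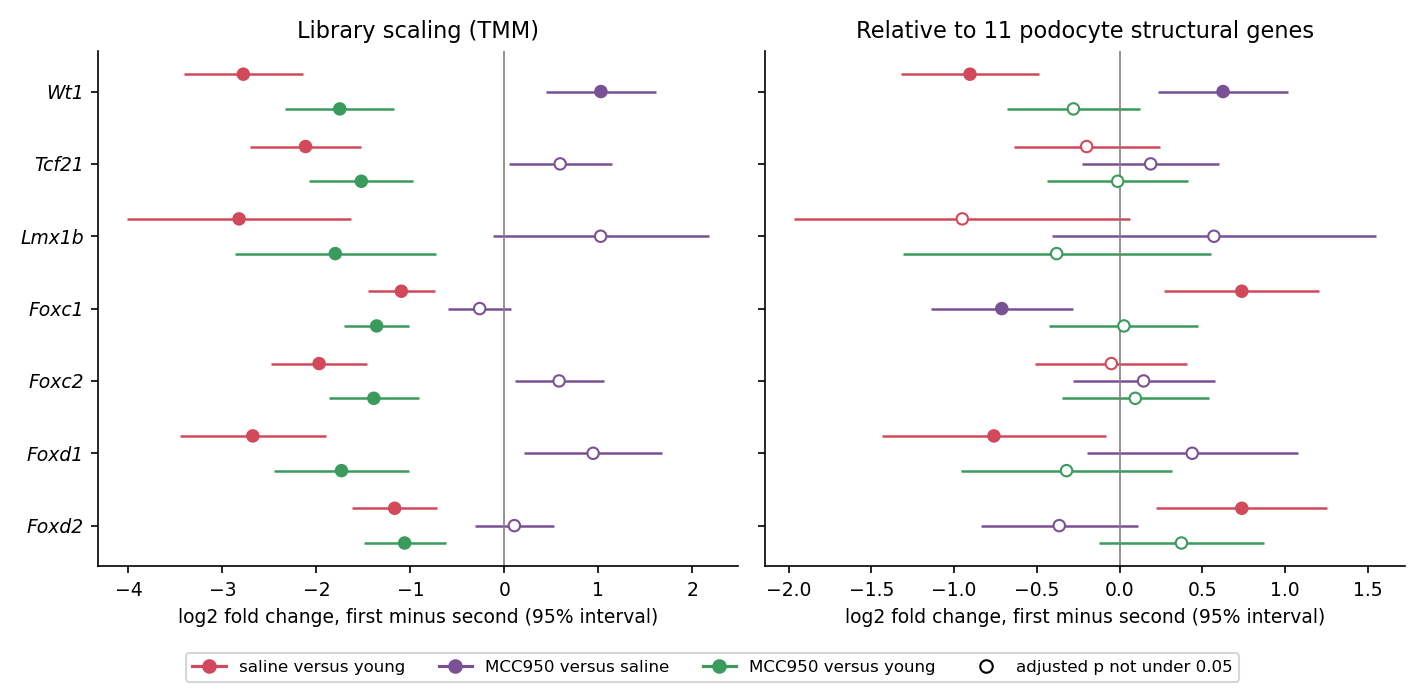
Log2 fold change of each of the 7 genes (horizontal axis, with a 95% interval) in the 3 comparisons, with libraries scaled by TMM (left) or by 11 podocyte structural genes (right). Filled points have an adjusted p under 0.05. On the left all 7 genes lie below 0 against young mice. In saline versus young on the right, Wt1 and Foxd1 are filled below 0 and Foxc1 and Foxd2 filled above 0. Lmx1b, Tcf21 and Foxc2 are open points below 0 there.

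Between MCC950 and saline libraries on the same scale, where 0.281% of all genes were called higher and 11.1% lower and the median of all genes was -0.43, *Wt1* was higher by 0.63 (standard error 0.20, adjusted p = 0.0437) without overlap (0.0366% of all genes). *Foxc1* was lower by 0.71 (standard error 0.22, adjusted p = 0.0380). Neither held in every fit. The call of *Wt1* was lost in 9 and that of *Foxc1* in 9 of the 15 fits that leave out a saline or MCC950 library, with log2 fold changes of 0.50 (adjusted p = 0.0973) and -0.65 (adjusted p = 0.0970) without saline replicate 5, the library of lowest structural score. With the 6 structural genes of largest fall, *Wt1* was at 0.42 (adjusted p = 0.149), and with summed structural counts *Foxc1* was at -0.56 (adjusted p = 0.122). Against young mice, 0 of the 7 genes were called in MCC950 libraries on this scale, where 92.8% of all genes were called higher and 0.171% lower. By unadjusted p under 0.05 the number was also 0, and the values ran from -0.38 for *Lmx1b* (interval -1.31 to 0.55) to 0.37 for *Foxd2* (interval -0.13 to 0.87).

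Within each forkhead pair, the share of the pair's reads does not depend on how a library is scaled. It can still depend on the mixture of cells in a fraction, which was not tested. *Foxd1* took between 40.2% and 56.4% (median 47.8%) of the reads of *Foxd1* and *Foxd2* in young libraries. In saline libraries its share was between 17.3% and 40.8% (median 22.4%), and in MCC950 libraries between 23.3% and 47.7% (median 37.2%). All saline libraries but replicate 6 were below every young library. *Foxc2* took between 21.1% and 39.3% (median 34.2%) of the reads of *Foxc1* and *Foxc2* in young, between 16.7% and 28.0% (median 20.3%) in saline and between 21.6% and 37.3% (median 33.0%) in MCC950 libraries. In the *Foxc* pair the MCC950 libraries were above every saline library except for replicate 5, and young replicates 1 and 5 stood with the saline libraries. These shares were examined after the levels were known and are given without a test.

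**Figure D3:**
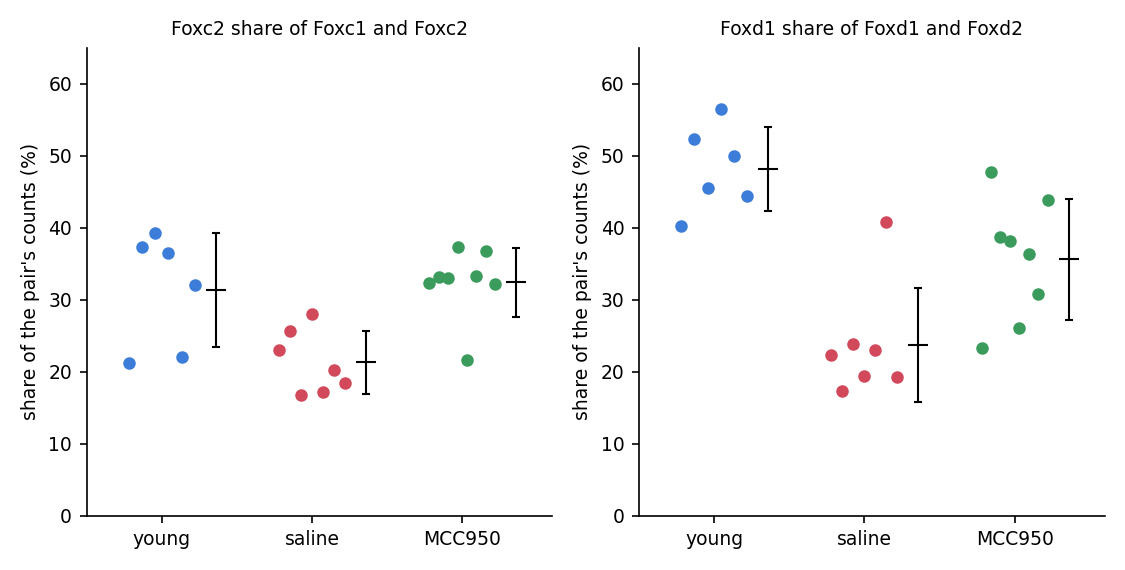
Share of the reads of a forkhead pair (vertical axis, percent) taken by Foxc2 (left) and Foxd1 (right), with 1 point for each library and the mean ± SD in black. The Foxd1 share is 40.2% or more in each young library and under 24% in 6 of 7 saline libraries.

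The 7 genes did not follow the structural genes equally closely from library to library. After the mean of each group was taken off, log2 CPM over the 21 libraries correlated with the structural score at r = 0.92 for *Wt1*, 0.88 for *Tcf21*, 0.82 for *Foxc2*, 0.70 for *Lmx1b*, 0.69 for *Foxd2*, 0.67 for *Foxd1* and 0.46 for *Foxc1*. These are descriptions, since the points share library composition and scaling, and those of *Lmx1b* and *Foxd1* rest on few reads. Among the genes whose pattern was most like that of *Wt1* were *Nphs1* (r = 0.96), which encodes nephrin, and *Srgap1* (r = 0.93). *Tcf21* was most like *Ehd3* (r = 0.94), a marker of glomerular endothelium in the lists used here, *Cyyr1* (0.90) and *Tmem204* (0.90). *Foxc2* was most like *Gng11* (0.89), *Cdkn1c* (0.89), which encodes the cell cycle inhibitor p57 of mature podocytes, and *Map3k12* (0.88). *Lmx1b* was most like *Efemp2* (0.81), *Foxd2* like *Rhpn1* (0.85), *Foxd1* like *Fzd2* (0.81) and *Foxc1* like *Pcdh1* (0.79). Among the 7 genes themselves, the highest correlation was between *Wt1* and *Tcf21* (0.83) and the lowest between *Foxc1* and *Foxd2* (0.32).

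**Figure D4:**
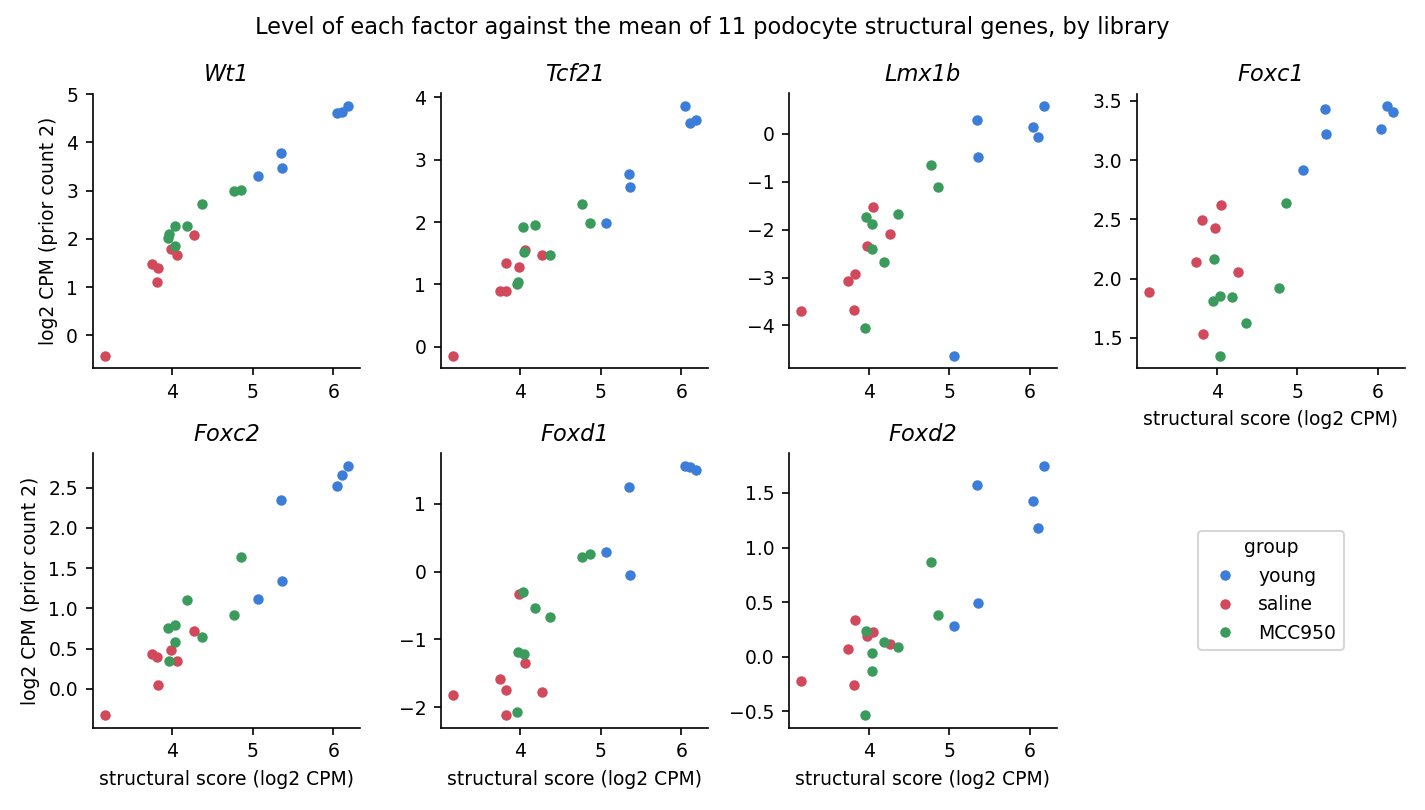
Log2 CPM of each of the 7 genes (vertical axis, prior count 2) against the structural score, the mean log2 CPM of 11 podocyte structural genes (horizontal axis), with 1 point for each library. Wt1 runs closest along the score (r = 0.92 within groups) and Foxc1 least closely (r = 0.46).

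Of the 7 genes, 3 have a neighbour on the opposite strand whose start lies beside their own, and all 3 neighbours were lower with age. *Wt1os* begins 18 bases from *Wt1* by RefSeq (chr2:105076538-105126510). It lay between 0.618 and 1.65 CPM in young, between 0.0390 and 0.246 CPM in saline and between 0.159 and 0.954 CPM in MCC950 libraries. It fell with age by 3.13 on the log2 scale (standard error 0.44, adjusted p = 4.97e-05) and was higher with MCC950 than with saline by 1.87 (standard error 0.42, adjusted p = 0.00704). *C130021I20Rik* (chr2:33641193-33645663) overlaps the start of *Lmx1b* by 16 bases. It had more reads than *Lmx1b*, with 2.53 to 6.78 CPM in young, 0.0730 to 0.849 CPM in saline and 0.531 to 2.12 CPM in MCC950 libraries, and it stood at 2.53 CPM in young replicate 5, where *Lmx1b* was at 0. Its log2 fold change with age was -2.93 (standard error 0.39, adjusted p = 3.40e-05) and with MCC950 against saline 0.75 (standard error 0.36, adjusted p = 0.164). *Foxd2os* (chr4:114909257-114921118), 358 bases from *Foxd2*, fell with age by 1.48 (standard error 0.29, adjusted p = 9.12e-04) and differed by 0.33 with MCC950 (standard error 0.27, adjusted p = 0.424). *Gm10824* spans the whole of *Tcf21* on the opposite strand and had 12 reads or fewer in each library, too few to be tested. No source used here states whether reads were counted by strand, so reads over a shared stretch cannot be told apart.

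Among 18 other regulators and partners of podocyte genes, 5 fell with age and 0 rose, beside the 12.4% of all genes called lower. These were *Hey1*, a Notch target (-1.16, standard error 0.22), *Tead1* (-0.69, standard error 0.14) and *Yap1* (-0.35, standard error 0.11), which act together in Hippo signaling, the WT1-interacting *Wtip* (-0.32, standard error 0.11) and *Zhx1* (-0.22, standard error 0.06), with adjusted p between 7.36e-04 and 0.0390. The list's median log2 fold change was -0.05, against -2.12 for the 7 genes and -1.91 for the 11 podocyte structural genes. With MCC950, 2 of the 18 were higher than with saline and 1 was lower, beside 11.9% and 4.86% of all genes. *Osr1* (1.06, standard error 0.29, adjusted p = 0.0172) and *Zhx2* (0.21, standard error 0.06, adjusted p = 0.0278) were the higher ones. *Ldb1*, a cofactor of LIM homeodomain proteins such as LMX1B, was lower (-0.28, standard error 0.09, adjusted p = 0.0374).

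Of 12 genes reported as targets of WT1, LMX1B or FOXC factors in podocytes, 9 fell with age, beside 12.4% of all genes. Among them, *Nphs1* fell by 2.78 on the log2 scale (standard error 0.35), and the falls in *Col4a3* (-1.12, standard error 0.15) and *Col4a4* (-0.58, standard error 0.15), chains of the glomerular basement membrane, were smaller. With MCC950, 4 of the 12 were higher than with saline, among them *Nphs1* (1.18, standard error 0.32), *Magi2* (0.48, standard error 0.14) and *Vegfa* (0.46, standard error 0.14). *Scel* (-1.20, standard error 0.26) and *Cd2ap* (-0.18, standard error 0.05) were lower. Over all genes, 11.9% were higher and 4.86% lower with MCC950. Of the 12, 5 also belong to the 11 structural genes, so both lists are in part the same measurement. In the rest of the forkhead family, 19 of 40 listed genes passed the filter, and 4 of them fell with age, against the same 12.4%. *Foxl1* (-2.38, standard error 0.43, adjusted p = 4.52e-04) and *Foxs1* (-1.67, standard error 0.42, adjusted p = 0.00659) had mean levels of 1.01 and 0.976 CPM in young libraries, and *Foxk2* and *Foxo1* fell by 0.31 and 0.25. With MCC950, *Foxk2* was higher by 0.25 and *Foxk1* and *Foxp1* lower by 0.28 and 0.36 than with saline (adjusted p between 0.0208 and 0.0250). The median of the 19 with age was -0.05.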

How the data were processed

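mRNA was sequenced from 21 podocyte fractions, grouped by the labels. Per the study's methods, the authors trimmed reads with TrimGalore, used Bowtie2 for alignment to mm10 and took read counts per gene from featureCounts. The annotation release and strand setting are not given in the sources used here. Bowtie2 does not align reads across introns, which can lower the count of genes with several exons. The deposited files used here hold raw read counts for 27179 Entrez Gene numbers. Names came from RefSeq for 25275 of them and from GENCODE for 18. A deposited normalized table, which covers 20 of the libraries, was not used.

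The main test was the quasi-likelihood F test of edgeR 4.0.16 (R 4.3.3), on counts scaled by TMM and filtered by filterByExpr, with all 3 groups in 1 fit of 16377 genes. The study used DESeq2, run here as an alternative (1.42.0). A standard error is the absolute log2 fold change over the root of F, and 95% intervals are 1.96 standard errors to either side. CPM values use TMM, and log2 CPM a prior count of 2. Structural scaling used the geometric mean of counts plus 0.5 of 11 genes. Marker scores were compared between groups by exact permutation tests in scipy 1.17.1 with Python 3.11.15. The limit of 3 counts for a 0 covers counting error only. On simulated data of 16377 genes for saline versus young, changes were planted in 200 genes, with no other difference in expression between groups. Of the 200 changed genes 171 were called, as were 7 unchanged genes. The real groups differ in many more genes, so these counts do not give the error rate there. No 2 libraries were duplicates (lowest chi-square per degree of freedom 17.7). Replicates are individual mice per the study's text.

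All 7 genes are named in each comparison, as are neighbouring genes on the opposite strand, genes called in the lists of other regulators, targets and forkhead genes, and the genes of most similar pattern (of 12411 with an average of at least 1 log2 CPM). Values of 1 gene of these lists are not reported here. Genes and lists were chosen with earlier results of these data known. Alternatives were another scaling, tool and filter, 2 groups only, mitochondrial genes left out, thinning, covariates and leaving out libraries.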

Additional observations from a re-analysis of the deposited data

Results flagged for a closer look

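In 27 sets of values (7 genes and 2 pair shares in 3 groups), 3 held a library far from the rest of its group, where chance gives about 1 in 20. *Foxd1* stood at 0.756 CPM in saline replicate 6, with the next saline library at 0.354 CPM. In the same library the *Foxd1* share of the reads of *Foxd1* and *Foxd2* was 40.8%, with the next at 23.8%, so both rest on the same 53 reads of *Foxd1*. In MCC950 replicate 5 the *Foxc2* share of the reads of *Foxc1* and *Foxc2* was 21.6%, with the next MCC950 library at 32.1%.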

How the results depend on the processing

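Without a covariate, the fall of the 7 genes with age and their lower level with MCC950 than in young mice were refitted under several alternatives. They kept direction and call with other size factors, DESeq2, no filter, 2 groups only, the replicate block, no mitochondrial genes and each library left out. After thinning this held for the genes other than *Lmx1b*, which did not pass the filter on low counts there and was not tested. With the proximal tubule score as a covariate, *Lmx1b* (-1.50, adjusted p = 0.0650) and *Wt1os* (-1.04, adjusted p = 0.0751) lost the call against young mice. Covariates that do not overlap between young and saline libraries ended the calls. With the structural score, 0 genes were lower with age and 0 with MCC950 against young mice (0% and 0.0611% of all genes). Values turned for *Lmx1b* (0.66), *Tcf21* (0.39), *Foxd2* (0.21) and *Foxd2os* (0.40) with age, for *Foxd2* (-0.23) and *Foxd2os* (-0.081) with MCC950 against saline, and against young mice for *Wt1* (0.39), *Lmx1b* (0.85), *Tcf21* (0.45), *Foxc2* (0.11), *Foxd1* (0.020), *Wt1os* (0.60) and *Foxd2os* (0.32). With the endothelium score, chosen after seeing the data, 0 were lower in either comparison with young mice and 4 were higher with MCC950 than with saline (*Wt1*, *Tcf21*, *Foxc2* and *Foxd1*), beside 0.0122% and 0.0305% of all genes lower and 10.8% higher. *Foxd2os* turned with age (0.055), and against young mice *Wt1* (0.16), *Lmx1b* (1.17), *Tcf21* (0.60), *Foxc2* (0.26), *Foxd1* (0.43), *Foxd2* (0.13), *Wt1os* (0.68) and *Foxd2os* (0.64) turned. The cause was not tested. With a replicate block, 2 genes were higher with MCC950 than with saline, *Tcf21* (0.56, adjusted p = 0.0217) beside *Wt1* (1.16, adjusted p = 0.00219), where 14.5% of all genes were higher, and the block changed no other call of the 7 genes. Same-numbered libraries correlated between -0.061 and 0.35 for age, -0.14 and 0.33 for MCC950 against saline and -0.013 and 0.40 against young mice. Libraries of different numbers were not compared, so these values do not decide whether the numbers pair the libraries. Relative to structural genes, summed counts left 0 genes lower with MCC950 than with saline and turned *Tcf21* against young mice (0.080). The 6 genes of largest fall left 0 lower with age (*Tcf21* 0.30 and *Foxc2* 0.47 turned), 0 higher with MCC950 (*Tcf21* -0.035 and *Foxc2* -0.091 turned) and *Tcf21* at 0.26 against young mice. Without young replicate 5 and saline replicate 5, also chosen after seeing the data, 0 were lower and 0 higher with MCC950. Leaving out 1 library gave 0 to 2 genes higher with MCC950 than with saline, with *Foxd2* between -0.025 and 0.19. On the structural scale it gave 1 to 3 lower with age, with *Foxc2* between -0.14 and 0.077, and 0 to 1 lower and 0 to 1 higher with MCC950. Against young mice it gave 0 to 1 higher, *Foxd2* without young replicate 6 (0.57, adjusted p = 0.0375), with *Tcf21* between -0.094 and 0.089 and *Foxc1* between -0.071 and 0.13. Few reads limit *Lmx1b* and *Foxd1* most.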
